A study of Homo sapiens with 6 samples.

Results

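The genes described here are 3 ligands of the bone morphogenetic protein (BMP) family (BMP2, BMP4 and BMP7), the antagonist GREM1, the receptors BMPR1A and BMPR2, and the ID1, ID2, ID3 and ID4 genes, which respond to BMP signals. All probe sets that the platform's annotation assigned to 1 of these genes and to no other were taken. This gave 18 of the 22215 probe sets tested, for 9 of the 10 listed genes; BMPR1A was not analysed here. Expression was measured on 6 oligonucleotide arrays. The parental group was NCI-H1975, an established line of human non-small cell lung cancer (NSCLC) sensitive to WZ4002, an inhibitor of mutant EGFR. The WZR6 group was clone 6 isolated from NCI-H1975 cells that had been grown in rising amounts of WZ4002 until they were resistant. Each group held 3 samples, both groups were harvested in exponential growth in medium with 5% serum, and all values below have n = 3 per group. WZR6 is a single clone set against an uncloned line, so resistance and the properties of that clone cannot be told apart. Whether the inhibitor was in the medium at harvest, and whether the samples of a group were separate cultures, was not stated in the labels, so p-values measure the spread between these samples, which may be technical.

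BMP ligands are secreted proteins that bring together type I and type II receptor kinases, of which BMPR1A and BMPR2 are examples. The activated type I receptor phosphorylates SMAD1, SMAD5 and SMAD9, which enter the nucleus with SMAD4 and switch on target genes. The ID genes are classic targets. ID proteins carry a helix-loop-helix domain without the DNA-binding basic region, and they hold E proteins and other bHLH transcription factors away from DNA. Gremlin, the product of GREM1, binds BMP ligands outside the cell and blocks them. In the lung, BMP4 takes part in the branching and patterning of the airway epithelium.

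ID2, ID3 and ID4 belong to 1 family but did not move in 1 direction, so the 250 bases before the annotated start of each are shown side by side, from RefSeq on the build GRCh38.p14. Of the 9 measured genes 7 had such a window. Capitals mark matches, on either strand, to GGCGCC (a GC-rich SMAD element), GTCTAGAC (a palindromic SMAD element), GTCTG (a SMAD half-site, CAGAC when read on the other strand) or TATAAA (the TATA box). The sequences run 5′ to 3′ along the gene's strand.
ID2, chr2:8681806-8682055, plus strand: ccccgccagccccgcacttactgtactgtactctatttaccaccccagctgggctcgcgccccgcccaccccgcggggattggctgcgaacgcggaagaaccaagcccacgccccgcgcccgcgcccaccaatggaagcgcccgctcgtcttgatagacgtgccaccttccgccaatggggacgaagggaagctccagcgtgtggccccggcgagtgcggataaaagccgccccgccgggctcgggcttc
ID3, chr1:23559502-23559751, minus strand: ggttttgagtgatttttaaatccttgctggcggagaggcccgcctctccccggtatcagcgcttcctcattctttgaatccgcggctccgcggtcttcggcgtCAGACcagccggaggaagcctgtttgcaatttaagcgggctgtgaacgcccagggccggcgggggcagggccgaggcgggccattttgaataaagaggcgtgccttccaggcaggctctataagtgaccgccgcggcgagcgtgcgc
ID4, chr6:19837120-19837369, plus strand: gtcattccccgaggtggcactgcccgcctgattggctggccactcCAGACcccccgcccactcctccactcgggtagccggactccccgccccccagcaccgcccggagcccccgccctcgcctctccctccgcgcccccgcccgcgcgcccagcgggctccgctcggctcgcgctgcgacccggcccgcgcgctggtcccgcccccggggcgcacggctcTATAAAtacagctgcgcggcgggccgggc
ID2 held no match to these 4 motifs. ID3, which rose, and ID4, which fell, each held 1 GTCTG match, on the reverse strand, starting 147 and 205 bases before the start. ID4 also held a TATAAA that began 29 bases before its start. ID1, for which no change was called below, held TATAAA on each strand, starting 33 and 31 bases before its start. Its window, not printed here, held none of the other motifs. GTCTG was present in 38.0% of 35116 RefSeq windows of the same length, TATAAA in 10.7%, GGCGCC in 16.4% and GTCTAGAC in 0.182%. A match is a description of these letters and not a bound site. Bases further upstream were not searched, so a window without a match does not show that the gene lacks these elements.

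Among the 18 probe sets, 5 were higher in WZR6, 5 were lower and 8 did not pass the test, an adjusted p under 0.05 in limma over all probe sets. The 10 called probe sets are 55.6% of the members, beside 41.1% of all probe sets (21.6% higher and 19.5% lower). The groups did not overlap for 11 of the 18, or 61.1%, beside 51.1% of all probe sets. The median difference of the members was 0.10 on the log2 scale, beside 0.03 over all probe sets, and the median size of the difference regardless of sign was 0.26, beside 0.17. Since so many probe sets of the array differed, nothing is read from the members' count alone. A difference is log2 intensity in WZR6 minus parental, and a lower level cannot be told apart as fewer expressing cells or less RNA per cell.

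Across the arrays, log2 intensities of pairs from the same group correlated over probe sets at 0.9978 to 0.9983 and pairs from different groups at 0.9815 to 0.9826, and 0 pairs of arrays were identical. Of 8 markers of a lung epithelial cancer line 7 fell in WZR6 and KRT18 was not called (14.14 in parental and 14.02 in WZR6). The adhesion genes EPCAM and CDH1 fell 76.8-fold and 51.7-fold, to means of 6.17 and 6.32, MUC1 fell 5.22-fold, the lung lineage factor NKX2-1 4.40-fold and KRT19 3.27-fold. By probe set, log2 differences ran from -5.69 to -1.04 for CDH1, -2.44 to -0.99 for MUC1 and -2.14 to -0.19 for NKX2-1. The summed linear intensity of those 8 was 47458 to 48035 in parental samples and 26520 to 27201 in WZR6. That of 5 leukocyte markers was 517 to 581 and 299 to 320, that of 6 fibroblast markers 2115 to 2297 and 1187 to 1207, and that of 4 endothelial markers 242 to 270 and 264 to 285. The table carries no detection calls. Means lay above the lower quartile of the table, 5.27, in both groups for 3 of the 5 leukocyte markers (CD14, ITGB2 and CD3D). The same held for 4 of the 6 fibroblast markers and 3 of the 4 endothelial markers (PECAM1, VWF and CDH5). PTPRC, CD2, COL3A1, LUM and KDR lay below that quartile in both groups. CD14 fell 1.94-fold and ITGB2 2.58-fold, CDH5 rose 1.85-fold and the fibroblast marker PDGFRB 1.58-fold, and COL1A1 and COL1A2 fell 8.01-fold and 1.47-fold. The 4 COL1A1 probe sets differed by -3.00 to 0.08 on the log2 scale. The part of these markers in the results below was not tested.

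BMP2, a ligand that signals through BMP type I receptors, rose in WZR6 on both of its probe sets. Probe set 205290_s_at read 9.94, 10.06 and 9.87 in parental replicates 1 to 3 and 10.84, 10.88 and 10.83 in WZR6. The highest parental sample lay well below the lowest WZR6 sample, and the difference was 0.90 ± 0.06 (SE), or 1.86-fold (95% interval 1.68 to 2.05, limma adjusted p = 4.49e-05). Probe set 205289_at read 9.69, 9.62 and 9.91 in parental samples and 10.45, 10.48 and 10.59 in WZR6, again without overlap. Its difference was 0.77 ± 0.09, or 1.70-fold (1.48 to 1.96, adjusted p = 0.000421). The call held in all alternatives in which each was tested, 12 for the first and 13 for the second.

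BMP4, the ligand most closely related to BMP2, went the other way by a small amount. Its single probe set, 211518_s_at, read 7.85, 7.79 and 7.78 in parental samples and 7.54, 7.68 and 7.50 in WZR6. The groups did not overlap, but the second WZR6 sample lay near the parental range. The difference was -0.23 ± 0.06 (SE), or 1.17-fold lower (1.06 to 1.30, limma adjusted p = 0.0229). The call ended when parental replicate 1, parental replicate 2, WZR6 replicate 1 or WZR6 replicate 3 was left out, with adjusted p-values of 0.0712, 0.0522, 0.0761 and 0.0710 and differences of -0.20, -0.24, -0.21 and -0.19.

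BMP7, a ligand of another branch of the family, had 4 probe sets, all with a positive difference, of which 2 were called. Probe set 209590_at read 4.14, 4.56 and 4.53 in parental samples and 4.98, 4.75 and 5.16 in WZR6, a difference of 0.56 ± 0.14 (SE, limma adjusted p = 0.0181). All 6 of these values lie below the lower quartile of the table, and background limits what such a difference says about the transcript. Probe set 211259_s_at read 6.23, 6.30 and 6.30 against 6.45, 6.48 and 6.41, a narrow shift of 0.17 ± 0.05 without overlap (adjusted p = 0.0320). The remaining 2 were not called, at 0.40 ± 0.14 for 209591_s_at (adjusted p = 0.0585) and 0.15 ± 0.10 for 211260_at (0.317), and their groups overlapped. The call of 209590_at ended without WZR6 replicate 1 (0.55, adjusted p = 0.0524) or replicate 3 (0.46, 0.0560). That of 211259_s_at ended without any 1 of parental replicates 1, 2 and 3 or WZR6 replicates 1 and 2, at differences of 0.14, 0.18, 0.18, 0.17 and 0.15 and adjusted p-values of 0.0901, 0.0582, 0.0525, 0.0859 and 0.108. It also ended with the replicate block, under cyclic loess and with a variance trend (0.0533, 0.0964 and 0.159). Probe set 209591_s_at was called in 4 of 10 alternatives, which were the replicate block, a variance trend, median centring and leaving out parental replicate 1 (adjusted p = 0.0104, 0.0233, 0.0425 and 0.00575). The rise of BMP7 therefore rests on dim or narrowly separated values.

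**Figure D1:**
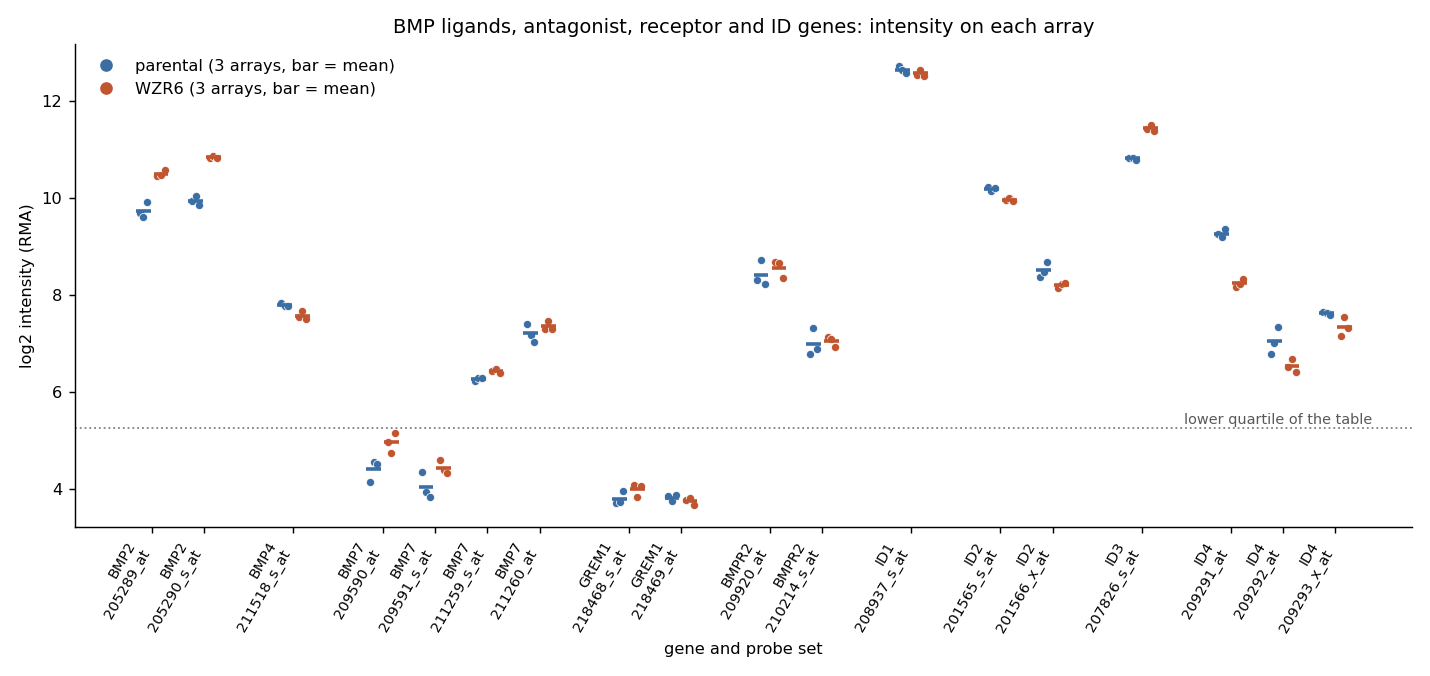
Log2 intensity of each of the 18 member probe sets (horizontal axis) on each array (points), with 3 parental and 3 WZR6 arrays and a bar at each group's mean; the dotted line is the lower quartile of the table, 5.27. The WZR6 points lie above the parental points for BMP2 and ID3 and below them for ID4, while the points of ID1, BMPR2 and GREM1 overlap. Levels of different probe sets are not comparable with each other.

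GREM1, the secreted antagonist, was at the bottom of the intensity range in both groups. Its 2 probe sets read 3.72 to 3.97 and 3.75 to 3.87 in parental samples and 3.85 to 4.09 and 3.68 to 3.81 in WZR6. These values overlapped between groups and all lay below the lower quartile, and the differences, 0.19 ± 0.10 and -0.07 ± 0.06 (SE), were not called (limma adjusted p = 0.156 and 0.389). No change of GREM1 was detectable, and values this low may be background.

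BMPR2, the type II receptor shared by many BMP ligands, was not called on either probe set. Probe set 209920_at read 8.31, 8.73 and 8.23 in parental samples and 8.69, 8.66 and 8.35 in WZR6, so the second parental sample was the highest of all 6. The difference was 0.15 ± 0.15 (SE, 95% interval -0.21 to 0.50, limma adjusted p = 0.494). Probe set 210214_s_at differed by 0.05 ± 0.14 (-0.28 to 0.38, adjusted p = 0.798). These intervals leave room for a change of up to about 0.50 on the log2 scale.

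The 4 ID genes split. ID3 rose, ID4 fell, ID2 fell slightly, and ID1 was not called. ID4, whose protein can bind other ID proteins as well as bHLH factors, fell furthest among the members. Its probe set 209291_at read 9.26, 9.20 and 9.36 in parental samples and 8.17, 8.23 and 8.34 in WZR6. Every WZR6 sample lay below every parental sample, and the difference was -1.03 ± 0.07 (SE), or 2.04-fold lower (1.82 to 2.27, limma adjusted p = 3.95e-05), which made it the only member probe set past 2-fold, beside 3.79% of all probe sets. Probe set 209292_at read 6.79, 7.02 and 7.34 against 6.52, 6.69 and 6.42, a difference of -0.51 ± 0.14 (adjusted p = 0.0259). The third ID4 probe set, 209293_x_at, differed by -0.28 ± 0.10 and was not called (adjusted p = 0.0539), although its groups did not overlap and it was called in 5 of 12 alternatives. The 3 probe sets thus had the same sign and different sizes. The call of 209291_at held in all 13 alternatives, with differences between -1.07 and -0.98. That of 209292_at ended without parental replicate 2, WZR6 replicate 1 or WZR6 replicate 3 (-0.52, -0.49 and -0.44, adjusted p = 0.0597, 0.0717 and 0.0825).

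ID3, an inhibitor of E proteins, rose on its single probe set, 207826_s_at. Parental samples read 10.84, 10.84 and 10.79 and WZR6 samples 11.43, 11.52 and 11.39. The groups were far apart relative to their spread, with a difference of 0.62 ± 0.05 (SE), or 1.54-fold (1.41 to 1.68, limma adjusted p = 0.000122), and the call held in all 12 alternatives. ID1, the founding member of the family, read 12.73, 12.65 and 12.58 in parental samples and 12.55, 12.65 and 12.53 in WZR6 on 208937_s_at. The groups overlapped, and the difference was -0.08 ± 0.06 (95% interval -0.22 to 0.07, adjusted p = 0.380). That interval does not reach the size of the ID3 or ID4 differences.

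ID2, also a bHLH inhibitor, fell by a small amount on both probe sets that were its own. Probe set 201565_s_at read 10.23, 10.15 and 10.22 in parental samples and 9.97, 10.01 and 9.94 in WZR6, a difference of -0.22 ± 0.05 (SE), or 1.17-fold lower (1.08 to 1.27, limma adjusted p = 0.00965). Probe set 201566_x_at read 8.38, 8.49 and 8.69 against 8.14, 8.23 and 8.26, a difference of -0.30 ± 0.09 (adjusted p = 0.0263). The groups overlapped on neither. The call of the first held in all 12 alternatives, and that of the second ended without parental replicate 2, WZR6 replicate 1 or WZR6 replicate 2 (-0.32, -0.27 and -0.31, adjusted p = 0.0556, 0.0857 and 0.0609). A further probe set, 213931_at, is annotated jointly to ID2 and its pseudogene ID2B, was not counted as a member and differed by 0.02 ± 0.09 (adjusted p = 0.886).

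**Figure D2:**
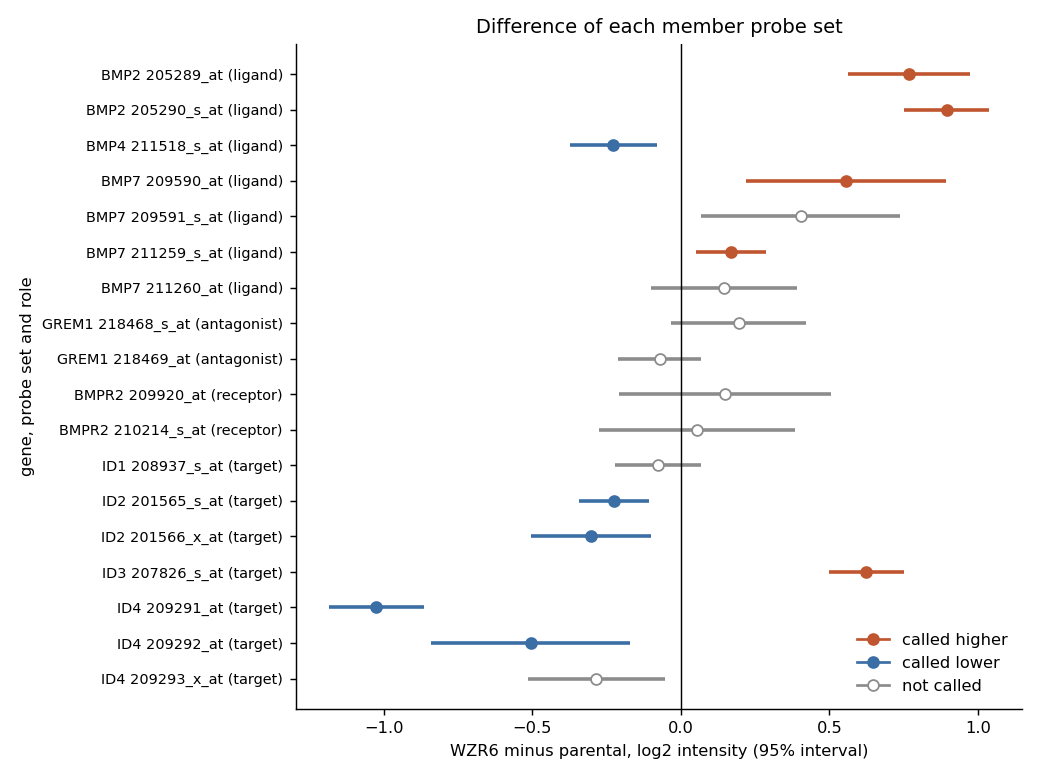
Difference between WZR6 and parental log2 intensity (horizontal axis) for each member probe set (vertical axis, with the gene's role), with the 95% interval of the limma fit as a line; filled points were called at an adjusted p under 0.05. The 2 BMP2 probe sets (0.77 and 0.90) and ID3 (0.62) lie furthest right and ID4 209291_at (-1.03) furthest left.

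Position was not used in choosing the members, and their neighbours on the chromosome differed in how they moved. With 1 probe set per gene, the own probe set with the highest mean, 5 of 9 members were called (55.6%, beside 48% of all 11963 genes), and 10 measured genes on each side of each were taken in RefSeq gene order. The 20 neighbours of ID2 had a median difference of -0.29 and 13 of them were called lower, so that the difference of ID2, -0.22, lay within those of the genes around it. The neighbours of ID3 had a median of 0.31, with 10 called higher, and ID3 at 0.62 was 0.31 above that median. Those neighbours ranged from -0.30 to 1.14, so ID3 lay within their range. ID4 fell by 1.03 among neighbours of which 13 were called higher and 3 lower, with a median of 0.27. No neighbour of ID4 fell as far, the lowest being at -0.68. BMP2 rose by 0.90 among neighbours with a median of -0.06, the highest at 0.28, and BMP4 at -0.23 lay among neighbours with a median of 0.11 that ranged from -0.46 to 0.68. The part of the shared shifts around ID2 and ID3 in those members' differences was not tested.

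**Figure D3:**
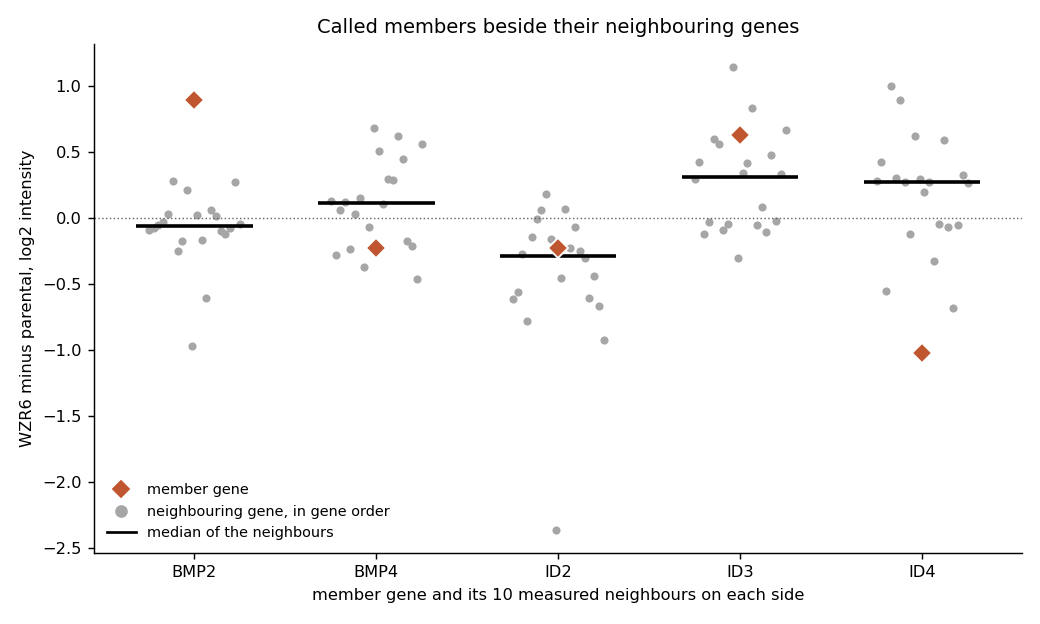
Difference between WZR6 and parental log2 intensity (vertical axis) for the 5 called member genes (diamonds) and for the 10 measured genes on each side of each in gene order (grey points), with a bar at the median of the neighbours. ID4 (-1.03) and BMP2 (0.90) lie outside the range of their neighbours, and ID2 (-0.22) lies close to its neighbours' median, -0.29.

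The other genes of the pathway were counted with 1 probe set per gene, of which 48% were called over all genes (24.5% higher, 23.5% lower), with a median difference of 0.02. Of 91 listed symbols 75 were measured as genes, each counted once. HEB, listed but not matched, is another name of TCF12, which was measured. Of the 75, 16 rose, 17 fell and 42 were not called (44.0% called, median 0.01). Of 18 other ligands 2 rose, 2 fell and 14 were not called, with a median of 0.01. The ligand subunit INHBA, which forms activin A, rose 20.2-fold and BMP5 rose 1.76-fold (1.40 to 2.21), while GDF15, a stress-induced relative of the family, fell 2.85-fold and GDF11 fell 1.12-fold. The second INHBA probe set differed by 1.83 on the log2 scale, against 4.33 for the first. GDF15 was not called without _x_at and _s_at probe sets (-0.05), and GDF11 changed sign there (0.10) and was not called in several other alternatives. Of 5 other receptors 2 fell and 3 were not called, with a median of -0.09. ACVR1, a type I receptor for BMP ligands, fell by 0.47 ± 0.08 (SE, limma adjusted p = 0.00225) and the type II receptor ACVR2A by 0.31 ± 0.07 (0.0127). The type I receptors BMPR1B and ACVRL1 and the type II receptor ACVR2B differed by -0.05 ± 0.14, 0.08 ± 0.14 and -0.09 ± 0.11.

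Among 4 measured co-receptors and pseudo-receptors 2 rose, 1 fell and 1 was not called (median 0.54). BAMBI, a receptor-like protein without a kinase that dampens BMP and TGF-beta signals, rose from 9.88 ± 0.05 (SD) to 11.03 ± 0.01, or 2.22-fold (2.07 to 2.39, limma adjusted p = 3.26e-06). The co-receptor TGFBR3 rose 2.23-fold and NEO1, a receptor for repulsive guidance molecules, fell 2.39-fold. Of 12 extracellular modulators 4 rose, 2 fell and 6 were not called (median 0.11). FSTL1 and FSTL3, which bind ligands of the family, rose by 0.54 ± 0.04 (SE) and 0.50 ± 0.05, while follistatin, FST, fell by 0.60 ± 0.05 and the protease TLL2 by 0.45 ± 0.09. FST turned to 0.02 without _x_at and _s_at probe sets. The TLL2 means were 5.74 in parental and 5.29 in WZR6, the latter at the lower quartile of the table, 5.27. Its 3 probe sets differed by -0.48 to -0.05.

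Inside the cell, 5 of 10 SMADs and regulators rose, 2 fell and 3 were not called (median 0.20). The ubiquitin ligases SMURF2 and SMURF1, which mark SMADs and receptors for degradation, fell 2.75-fold (2.53 to 2.98) and 2.02-fold (1.85 to 2.22), with limma adjusted p-values of 2.04e-06 and 1.45e-05. The inhibitory SMAD6, itself a BMP target, rose 1.67-fold (1.48 to 1.89) and the ligase NEDD4L 1.28-fold. SMAD6 was not called without _x_at and _s_at probe sets (0.14). Of 16 further target transcripts 5 rose, 5 fell and 6 were not called (median 0.01). SMAD6, SMAD7 and BAMBI, which rose, were counted in this list and in the lists above. BAMBI and SNAI2, a transcriptional repressor, rose, the latter by 1.00 ± 0.05 (SE), and the repressors HEY1 and HES1, which also respond to Notch, fell 2.83-fold (2.55 to 3.15) and 1.97-fold (1.75 to 2.23). HEY1 differed by -0.52 with the floor at the median of all values, which lies above its WZR6 mean, and HES1 by 0.04 without _x_at and _s_at probe sets.

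Of 9 bHLH factors, among them the partners that ID proteins bind, 1 rose, 2 fell and 6 were not called (median -0.01). LYL1 rose by 0.52 ± 0.05 (SE) and HES1, also counted among the further target transcripts, fell. The E protein gene TCF3 is uncertain: its main probe set fell by 0.19 ± 0.05, while 2 of its 13 probe sets were called in the other direction. TCF12 and TCF4, the other E protein genes, differed by 0.03 ± 0.07 and 0.15 ± 0.09 and were not called. The TCF4 means, 4.90 in parental and 5.05 in WZR6, lay below the lower quartile of the table, 5.27, and may be background. Of 5 cell cycle inhibitors, among them genes whose promoters E proteins can activate, 2 fell and 3 were not called (median 0.05). CDKN1A, which encodes p21, fell 1.76-fold (1.60 to 1.94, limma adjusted p = 4.75e-05) and CDKN1C 1.28-fold. The 5 CDKN1C probe sets differed by -0.52 to 0.09 on the log2 scale.

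**Figure D4:**
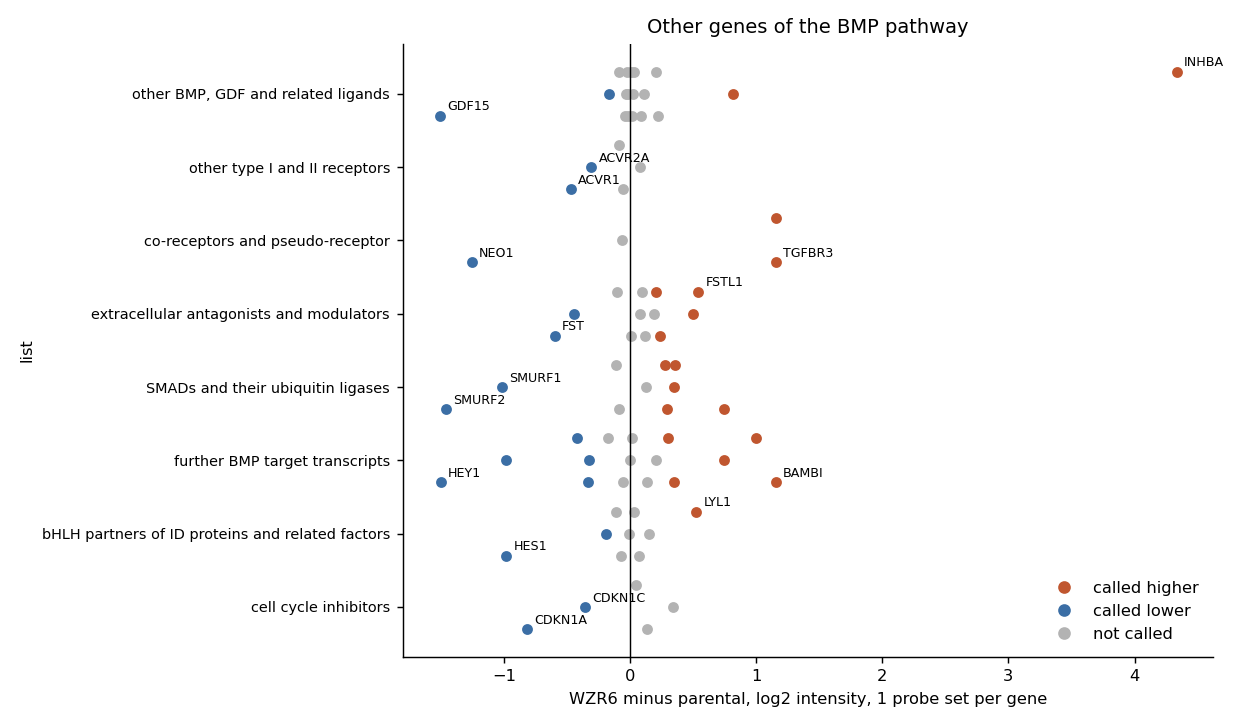
Difference between WZR6 and parental log2 intensity (horizontal axis) for the measured genes of 8 pathway lists (vertical axis), 1 point per gene; points within a list are spread vertically for legibility and the called genes with the largest differences are named. Called genes lie on both sides of 0 in 6 of the 8 lists; in the lists of other receptors and of cell cycle inhibitors those called are lower.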

How the data were processed

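RNA from 3 parental and 3 WZR6 samples was hybridised to 1 array each. The deposited table holds linear intensity values produced by the authors with RMA, according to the submitters' processing notes, without a stated version. The log2 of each intensity was used, with no pseudocount and no further normalization. Of 22277 probe sets 62 controls were left out. In the platform's annotation 19064 probe sets carried 1 gene, 1043 several and 2108 none; 19052 matched RefSeq (GRCh38.p14) by Entrez identifier.

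WZR6 was compared with parental samples with limma 3.58.1 in R 4.3.3 (lmFit, eBayes, two-sided), over 22215 probe sets for the members and over 11963 genes, each by its brightest own probe set, for the lists and neighbours, with Benjamini-Hochberg adjustment and calls under 0.05. The array number, 3 per group, limits precision. The model was tested on simulated data. The members, lists and tests were chosen with earlier results of these data known. All member probe sets were named; in each list up to 4 called genes with the largest differences, and the type I and II receptors, were named. TCF12, TCF4 and the markers were named after their values were seen. Alternatives were cyclic loess, median centring, a level filter, a floor at the median, a variance trend, the replicate block, other probe set choices and leaving out each array. Plots used matplotlib 3.10.9 (Python 3.11.15).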

Additional observations from a re-analysis of the deposited data

How the results depend on the processing

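Of the 18 member probe sets, BMP2 (both), ID3, ID4 209291_at and ID2 201565_s_at kept their direction and call in every alternative in which they were tested. Without _x_at and _s_at probe sets, where fewer probe sets are tested, 2 member probe sets were higher and 2 lower, and of all probe sets 2232 and 2013; of genes 1795 and 1692, of member genes 1 and 1 (2 and 3 in the reported fit), and 7 pathway genes were lower. There FST, GDF11, HES1, MSX2, SMAD1, TAL1 and TCF3 changed sign, to 0.018, 0.10, 0.044, 0.047, 0.33, 0.20 and 0.33. With features above the median level only, and with the floor, 3 member probe sets were higher, since dim BMP7 probe sets were not tested. Leaving out 1 array gave 3 to 5 member probe sets higher and 2 to 5 lower; the lowest counts came without WZR6 replicate 1 (3 and 2) and without parental replicate 2 (2 lower), and 3 were lower without WZR6 replicate 3.

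The neighbours' medians kept their sign. That of BMP2 was -0.087 under cyclic loess, -0.031 under median centring, -0.10 with the level filter and the floor, and -0.019 when a gene's probe sets were averaged. That of ID4 was 0.25 under cyclic loess, 0.30 under median centring, the level filter and the floor. That of ID2 was -0.44 with the level filter, -0.40 under the floor and -0.47 with neither _x_at nor _s_at probe sets, and that of ID3 0.42, 0.42 and 0.21. Leaving out 1 array gave -0.33 to -0.26 for ID2, 0.26 to 0.32 for ID3 and 0.25 to 0.29 for ID4. The cause was not tested.

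Deviations of same-numbered samples from their group means correlated at -0.01, 0.12 and 0.23, and 3 of 6 samples correlated best with their own number, so the numbers were not taken as pairs. With the replicate block 2946 genes were higher and 2783 lower, and 16 of 18 member calls were unchanged. Values below the lower quartile of the table, as for GREM1, limit what the arrays can show.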
